A study of Mus musculus with 24 samples.

Results

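The striatum of mice with a conditional knockout of THAP1 was compared with the striatum of control mice at postnatal day 21, on 8 Illumina mouse bead arrays of a series of 24. The arrays were chosen by their labels alone: 4 control arrays carry the numbers 1 to 4 and 4 knockout arrays the numbers 5 to 8, and all 11114 genes measured in the series were tested. The other 16 arrays hold cortex and cerebellum of the same genotypes, 4 per group, and served to set the spread of each gene and to show where striatum differed. Controls are labelled Nestin Con and knockouts Nestin THAP1 KO, so the name Nestin is shared by both groups. The labels do not spell out the alleles, the promoter construct, the sex or the strain, and the design text names 4 wild-type and 4 conditional knockout mice. Which mouse gave which array is not labelled either. It is therefore not stated that the 4 arrays of a group came from 4 animals, and p-values measure the spread between these arrays, which may be partly technical.

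THAP1 is a transcription factor that binds DNA through a zinc finger called the THAP domain, and mutations of the human gene cause an inherited dystonia, a movement disorder. Nestin is a gene of neural progenitor cells, from which neurons, astrocytes and oligodendrocytes descend. The striatum receives input from cortex and thalamus, most of its neurons are GABAergic projection neurons of the direct (dopamine D1 receptor) or indirect (dopamine D2 receptor) pathway, and bundles of myelinated axons run through it. In mouse, the weeks around weaning are a time of active myelination by oligodendrocytes.

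Values are log2 normalized bead intensities, in which the dimmest detected probes lay between 4.74 and 5.11, and a difference is always knockout minus control on that scale. The raw intensity averaged 287 to 570 over the control arrays and 353 to 441 over the knockout arrays. Between 12131 and 14003 of 25697 probes were detected on a control array and between 12549 and 13619 on a knockout array. Across genes, which are not replicates, arrays of a group correlated at 0.976 to 0.989 and arrays of different genotype at 0.978 to 0.988. The number of arrays, 4 against 4, limits the precision.

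Projection neuron markers were high on every striatum array, as the striatal label requires. The mean of 24 genes shared by D1 and D2 neurons lay between 9.35 and 10.16 on the striatum arrays, against 8.98 to 9.25 on cortex and 6.87 to 7.09 on cerebellum arrays. Drd1, the D1 receptor, lay between 9.59 and 11.08 on the striatum arrays and at most at 9.20 on any other array.

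Tissue from next to the striatum was present in unequal amounts. Oxt, the oxytocin precursor made by hypothalamic neurons, lay between 4.39 and 6.40 on the 16 other arrays. In striatum it stood at 8.93, 9.37, 6.23 and 9.99 on control arrays 1 to 4 and at 11.70, 9.81, 10.93 and 11.68 on knockout arrays 5 to 8. Control 3 was thus near the level of the other regions, and the knockout arrays were mostly above the controls, with an overlap between knockout 6 and control 4. The mean of 16 hypothalamic genes was 7.90, 7.76, 7.17 and 7.94 on the control arrays and 8.50, 7.78, 7.99 and 8.49 on the knockout arrays, against 5.41 to 6.33 elsewhere. Knockout 6 also stood apart in Slc17a7, the vesicular glutamate transporter of cortical neurons, with 8.37 against 4.75 to 5.66 on the other 7 striatum arrays and 10.12 or more in cortex and cerebellum. Ttr, the transthyretin of choroid plexus, varied within both groups, from 6.54 to 10.08 in controls and from 5.22 to 9.35 in knockouts. Eif2s3y, a gene of the Y chromosome, was high on controls 2 and 4 and knockouts 7 and 8 (6.76 to 7.60) and at background on the other 4 striatum arrays. Results that rest on these differences are given below also with the hypothalamic mean as a covariate, and with only the 3 control and 2 knockout arrays that were alike in it (controls 1, 2 and 4, knockouts 6 and 7).

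**Figure D1:**
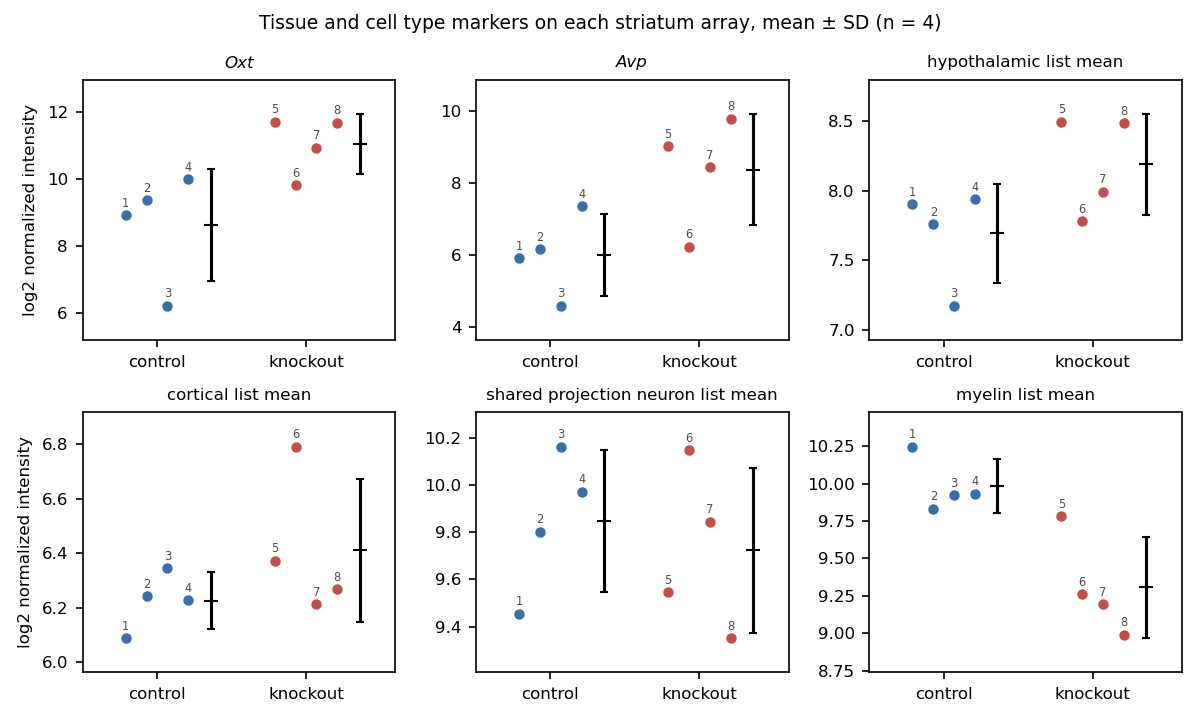
Each point is a striatum array, labelled by its number, on a log2 intensity axis, with the group mean and SD beside it (n = 4). Oxt, Avp and the hypothalamic mean are lowest on control 3 and highest on knockouts 5 and 8, the cortical mean is highest on knockout 6 (6.79), and the myelin mean is below every control array on all 4 knockout arrays.

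Thap1 itself was measured by 3 probes, and none of them passed the test. Probe ILMN_2603593 lay at 5.01, 5.45, 4.84 and 5.20 in controls and at 4.28, 4.60, 4.31 and 4.51 in knockouts. Every knockout array was below every control array, but the probe was detected on only 2 control arrays and on no knockout array. The difference was -0.70 and did not pass (adjusted p = 0.0687 by limma over all probes). Its size is uncertain, because undetected values enter the means of both groups. Probe ILMN_2907066, detected on 3 control arrays and 1 knockout array, differed by -0.43 (adjusted p = 0.514). Probe ILMN_1258989, the brightest and detected on all 8 arrays, was on average higher in knockouts. It stood at 5.30 ± 0.17 in controls and at 5.70 ± 0.32 in knockouts (SD, n = 4, difference 0.39, adjusted p = 0.790). Where in the transcript the probes lie, and which exons the knockout removes, was not known here, so these probes do not settle the labels.

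In all, 60 of 11114 genes (0.540%) differed between knockout and control striatum at an adjusted p under 0.05 (limma, Benjamini-Hochberg). Of these 14 were higher (0.126%) and 46 lower (0.414%) in the knockout. At an unadjusted p under 0.05 there were 821 genes (7.39%). Knockout and control values did not overlap for 48 of the 60. Over all 11114 genes this held for 421 (3.79%), of which 225 were higher (2.02%) and 196 lower (1.76%). The largest changes named below were drawn from those 48, so their lack of overlap was a condition of the choice. The median difference of all genes was 0.02, and 54.1% of genes were above 0. The count of 60 rested on the arrays used: it was 36 without control 1, 30 without knockout 8 and 95 without knockout 5. Every call kept its direction with the hypothalamic covariate and with the arrays alike in hypothalamic genes, but only 26 and 33 of the 60 still passed.

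The largest change was the fall of Ech1, a peroxisomal and mitochondrial enzyme that rearranges the double bonds of unsaturated fatty acids during their breakdown. Ech1 read 9.85, 9.82, 9.68 and 9.72 on the control arrays and 7.09, 6.78, 6.98 and 6.77 on the knockout arrays. The gap between the groups was far wider than the spread within them. The knockout was 7.26-fold lower (9.77 ± 0.08 in controls, 6.91 ± 0.16 in knockouts, SD, n = 4, difference -2.86 ± 0.13 SE, adjusted p = 1.20e-14). Ech1 was the only 1 of 21 measured genes of fatty acid oxidation to change, against 0.540% of all genes. The median of those 21 was 0.01.

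Cuedc2, which encodes a ubiquitin-binding protein, came next, with 9.82, 9.88, 9.99 and 9.75 in controls and 7.79, 7.88, 7.49 and 8.09 in knockouts. All 4 knockout arrays were well under the lowest control. The fall was 4.13-fold (difference -2.05 ± 0.14 SE, adjusted p = 6.29e-11). Cln3, a lysosomal membrane protein whose human gene is mutated in juvenile neuronal ceroid lipofuscinosis, read 7.39, 7.15, 6.83 and 7.34 in controls and 5.52, 5.65, 5.73 and 5.62 in knockouts. The groups were again fully apart, with the wider spread among the controls. The fall was 2.93-fold (difference -1.55 ± 0.17 SE, adjusted p = 2.02e-06). Ech1, Cuedc2 and Cln3 passed without each of the 8 arrays in turn and under all 11 planned changes of processing.

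The promoters of Ech1 and Cuedc2 are printed because these 2 genes fell most and because their windows hold matches both to the sequence bound by THAP1 and to the core bound by YY1, a zinc finger factor reported to act with THAP1. The promoter of Fam117a is printed because Fam117a rose most after Oxt and Avp. The THAP1 letters searched were TNNGGGCA and the YY1 letters AANATGG, on either strand, in the window from 250 bases before to 50 bases after the gene start. Sequences are from RefSeq, build GRCm38.p6, and run 5′ to 3′ along the strand of the gene, with matches in capitals. The Ech1 window is chr7:28825088-28825387 on the plus strand, the Cuedc2 window chr19:46338611-46338910 on the minus strand and the Fam117a window chr11:95336768-95337067 on the plus strand.
Ech1: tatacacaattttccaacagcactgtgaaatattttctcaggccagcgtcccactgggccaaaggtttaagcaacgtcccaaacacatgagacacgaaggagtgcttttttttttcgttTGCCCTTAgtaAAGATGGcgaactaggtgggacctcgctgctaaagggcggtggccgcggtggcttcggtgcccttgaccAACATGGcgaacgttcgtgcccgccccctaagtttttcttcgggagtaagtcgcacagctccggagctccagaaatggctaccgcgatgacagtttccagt
Cuedc2: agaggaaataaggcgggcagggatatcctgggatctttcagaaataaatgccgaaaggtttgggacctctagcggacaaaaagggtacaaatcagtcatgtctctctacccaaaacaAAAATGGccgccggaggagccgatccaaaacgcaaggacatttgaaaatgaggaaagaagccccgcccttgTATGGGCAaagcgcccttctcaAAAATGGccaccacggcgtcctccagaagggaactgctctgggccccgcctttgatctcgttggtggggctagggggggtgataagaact
Fam117a: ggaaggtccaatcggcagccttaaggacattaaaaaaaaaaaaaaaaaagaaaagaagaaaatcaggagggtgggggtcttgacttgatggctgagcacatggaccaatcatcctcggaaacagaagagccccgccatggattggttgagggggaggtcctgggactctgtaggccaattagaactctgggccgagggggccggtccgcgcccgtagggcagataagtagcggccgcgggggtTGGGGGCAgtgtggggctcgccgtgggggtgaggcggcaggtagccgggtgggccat
In Ech1 the THAP1 match starts at -131 from the gene start, on the opposite strand (it reads TGCCCTTA on the strand shown), a YY1 match starts at -120, and another YY1 match starts at -51. In Cuedc2 the THAP1 match starts at -62, with YY1 matches at -133 and -40. In Fam117a the THAP1 match starts at -7. THAP1 letters were found in 13.9% of 32851 mouse promoters. Counted by gene, with a match in any of its promoters, 17.1% of 8265 measured genes held them. Of the genes that fell, 33 had a promoter sequence and 9 of these held the letters (27.3%), and of 12 such genes that rose 3 held them (25%). YY1 letters were found in 16.1% of all promoters. By gene they were found in 17.6% of those measured, in 13 of the 33 that fell (39.4%) and in 2 of the 12 that rose (16.7%). The promoters of Cln3 and Ppp2r3c held neither motif. These are matches of letters only, and no binding was measured.

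**Figure D2:**
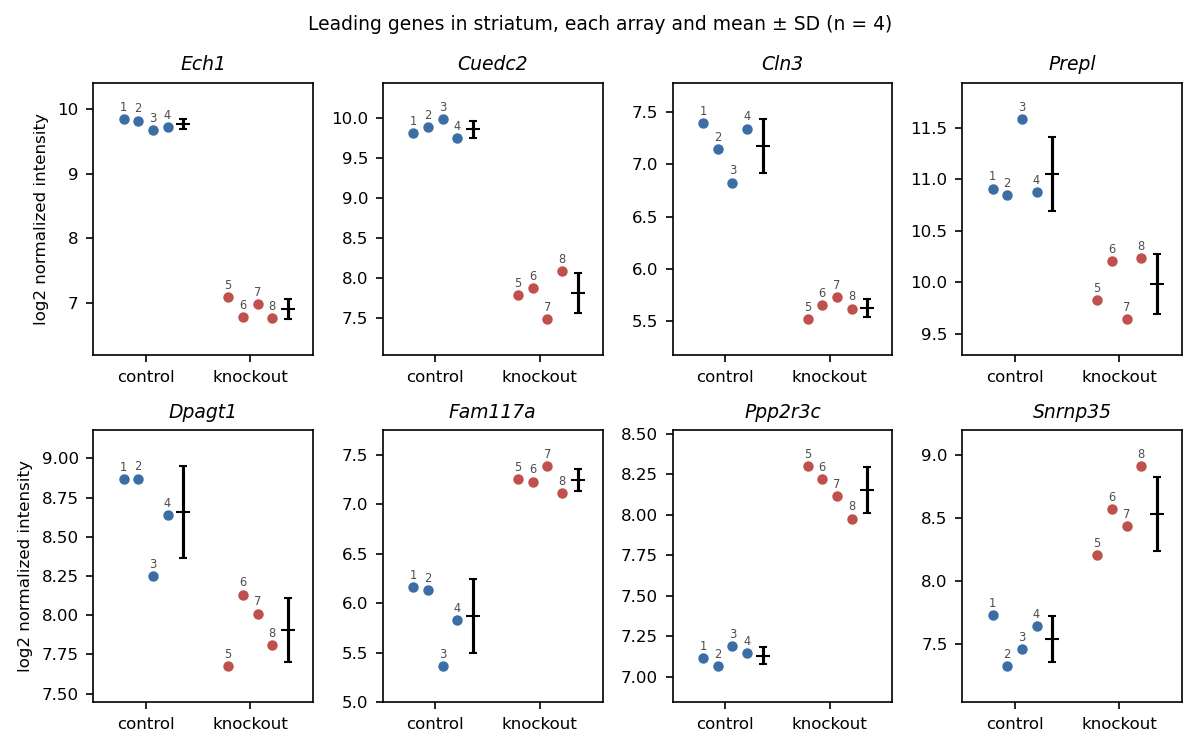
Points are the 8 striatum arrays on a log2 intensity axis, labelled by array number, with group mean and SD (n = 4) beside them, for 5 genes that fell and 3 that rose. In each panel the knockout arrays lie wholly on the far side of the controls, and the gap is widest for Ech1.

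Prepl and Dpagt1 also fell. Prepl, a serine hydrolase related to prolyl endopeptidase, read 10.91, 10.85, 11.59 and 10.88 in controls and 9.83, 10.21, 9.64 and 10.24 in knockouts. Control 3 was the high array and the groups did not overlap (difference -1.07 ± 0.19 SE, adjusted p = 0.00281). Dpagt1, which starts the assembly of the lipid-linked sugar chain for N-glycosylation, read 8.87, 8.87, 8.25 and 8.64 in controls and 7.67, 8.13, 8.01 and 7.81 in knockouts. It too separated the groups (difference -0.75 ± 0.15 SE, adjusted p = 0.0104), but the call was lost without control 1, control 2 or knockout 8, with adjusted p up to 0.0721. Dpagt1 was the only 1 of 24 measured genes of early N-glycan assembly to change, against 0.540% of all genes. The median of those 24 was -0.04. Prepl lost its call with the hypothalamic covariate (difference -0.84, adjusted p = 0.139) and with the arrays alike (-0.95, 0.0528). Dpagt1 lost it too (0.0866 and 0.065), at differences of -0.79 and -0.73 that were about as large as before.

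Miga1, a protein of the outer mitochondrial membrane that promotes fusion, was lower by 0.82 ± 0.16 (SE; values 7.68 to 8.16 in controls and 6.95 to 7.33 in knockouts, adjusted p = 0.00843). Of 14 measured genes of mitochondrial fusion and fission it alone changed, against 0.540% of all genes. Of the 14, 12 were above 0, against 54.1% of all genes. Mfsd13a, a membrane protein of the major facilitator family, differed by -0.87 (adjusted p = 0.00978) and lost the call without knockout 8 (0.0605). Zfp747, a zinc finger gene, fell by 0.91 (adjusted p = 0.00257), and E430018J23Rik fell by 1.00 (0.00119), in each case with no overlap between groups. Grb14, an adaptor protein that binds the insulin receptor, fell by 1.02 (adjusted p = 0.0409). Its second probe, detected on 1 array of each group, differed by -0.03, and the call was lost without any 1 of 5 arrays (controls 1, 2 and 3, knockouts 7 and 8). Miga1, Mfsd13a and Grb14 did not pass with the hypothalamic covariate or the arrays alike, although their differences stayed about as large (-0.82 and -0.87 for Miga1, -0.85 and -0.88 for Mfsd13a, -1.05 and -1.20 for Grb14). Mfsd13a, Zfp747, E430018J23Rik and Grb14 were named after their values were seen. In addition, 3 unnamed probes fell, ILMN_2597606 by 1.23, ILMN_2620106 by 1.14 and ILMN_1240381 by 0.65.

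Itgad, the alpha D subunit of leukocyte integrins, read 7.39, 7.11, 6.21 and 6.18 in controls and 5.26, 4.47, 5.83 and 4.65 in knockouts. The groups did not overlap, and the probe was detected on only 2 of the knockout arrays (difference -1.67 ± 0.28 SE, adjusted p = 0.00241). A second Itgad probe gave -1.06 (adjusted p = 0.00465 over all probes). The 15 measured genes of microglia and macrophages had a median of -0.08 and none passed.

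Fewer genes rose than fell. Fam117a, a protein of little known function, read 6.16, 6.13, 5.36 and 5.83 in controls and 7.25, 7.23, 7.38 and 7.11 in knockouts. Every knockout array was higher, and the controls were the more scattered group. The rise was 2.59-fold (difference 1.37 ± 0.20 SE, adjusted p = 0.000282). Ppp2r3c, a regulatory subunit of protein phosphatase 2A, read 7.12, 7.06, 7.19 and 7.14 in controls and 8.30, 8.22, 8.12 and 7.98 in knockouts. Its spread within groups was small beside the gap (difference 1.03 ± 0.11 SE, adjusted p = 2.02e-06). Snrnp35, a protein of the U11/U12 particle of the minor spliceosome, read 7.73, 7.32, 7.46 and 7.65 in controls and 8.21, 8.57, 8.44 and 8.91 in knockouts. The groups were apart (difference 0.99 ± 0.17 SE, adjusted p = 0.00276), while a dimmer probe, detected on 1 control array and 4 knockout arrays, differed by 0.52 (0.651). With the covariate Snrnp35 did not pass (difference 0.92, 0.0678), and with the arrays alike it did (0.94, 0.0399). The other 5 measured minor spliceosome genes did not pass.

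Cyb5d2, a heme-binding membrane protein, was higher by 1.05 (4.93 to 5.76 in controls, 5.98 to 6.67 in knockouts, adjusted p = 0.00712), and its second probe by 0.85 (0.0482). Zfp597, a zinc finger gene, rose by 0.72 (8.38 to 8.78 against 9.25 to 9.46, adjusted p = 0.0019). Lyrm1, a small protein of the LYR family, rose by 0.71 (6.53 to 6.98 against 7.28 to 7.57, 0.0239), and Imp4, a protein of ribosome assembly, by 0.57 (8.34 to 8.71 against 8.84 to 9.31, 0.038). The groups of these 4 genes did not overlap, which the rule that named them required. Over all genes 2.02% were higher without overlap. The calls of Lyrm1 and Imp4 were lost without any 1 of 5 and 6 arrays respectively, and with the covariate (adjusted p = 0.244 and 0.0866) and the arrays alike (0.306 and 0.119). Their differences stayed about as large, at 0.63 and 0.64 for Lyrm1 and at 0.67 and 0.64 for Imp4. Cadps2, which helps to prime dense-core vesicles and was named after its values were seen, rose by 0.47 (0.0409) with overlapping groups. It lost the call without 6 of the 8 arrays in turn. Second probes of Imp4 and Cadps2 differed by 0.43 and 0.47 and did not pass (0.334 and 0.49 over all probes).

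The same 10 genes passed in striatum, cortex and cerebellum alike, each with 1 direction in all 3 regions: Ech1, Cuedc2, Cln3, Prepl, Dpagt1 and E430018J23Rik were lower, and Ppp2r3c, Fam117a, Snrnp35 and Lyrm1 higher. Ech1 differed by -2.86, -2.64 and -2.47 in striatum, cortex and cerebellum, and Fam117a by 1.37, 1.57 and 1.46. Cuedc2 differed by -2.05 in striatum and by -3.00 in cortex, a gap that did not pass the test of the difference (0.96 ± 0.19 SE, adjusted p = 0.201). In cortex 61 genes passed (0.549%) and shared 22 with striatum, which is 36.7% of the striatal and 36.1% of the cortical calls. In cerebellum 26 passed (0.234%) and shared 15, which is 25% of the striatal and 57.7% of the cerebellar calls. The other 33 striatal genes passed in neither other region, which is no test of a difference. Arrays of different regions may come from the same mice, so calls shared between regions may not be independent.

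Only 1 gene differed in its effect between striatum and cortex and 1 between striatum and cerebellum (0.00900% each). At an unadjusted p under 0.05 there were 484 and 400 genes. Iqcj, an IQ-motif gene, read 5.96 ± 0.21 in control and 5.41 ± 0.23 in knockout striatum, but 4.77 ± 0.21 and 5.44 ± 0.19 in cortex (SD, n = 4). It was lower in knockout striatum and higher in knockout cortex (difference of effects -1.22 ± 0.21 SE, adjusted p = 0.0453), and in control cortex it was detected on 1 array of 4. Fxyd6, a regulator of the sodium pump, read 12.40 ± 0.03 and 12.53 ± 0.16 in striatum and 11.35 ± 0.19 and 10.72 ± 0.13 in cerebellum. The gap between these effects was 0.76 ± 0.13 (SE, adjusted p = 0.0485) and came with a striatal difference of only 0.12. Each call was lost under several changes of processing, as given under the limits.

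**Figure D3:**
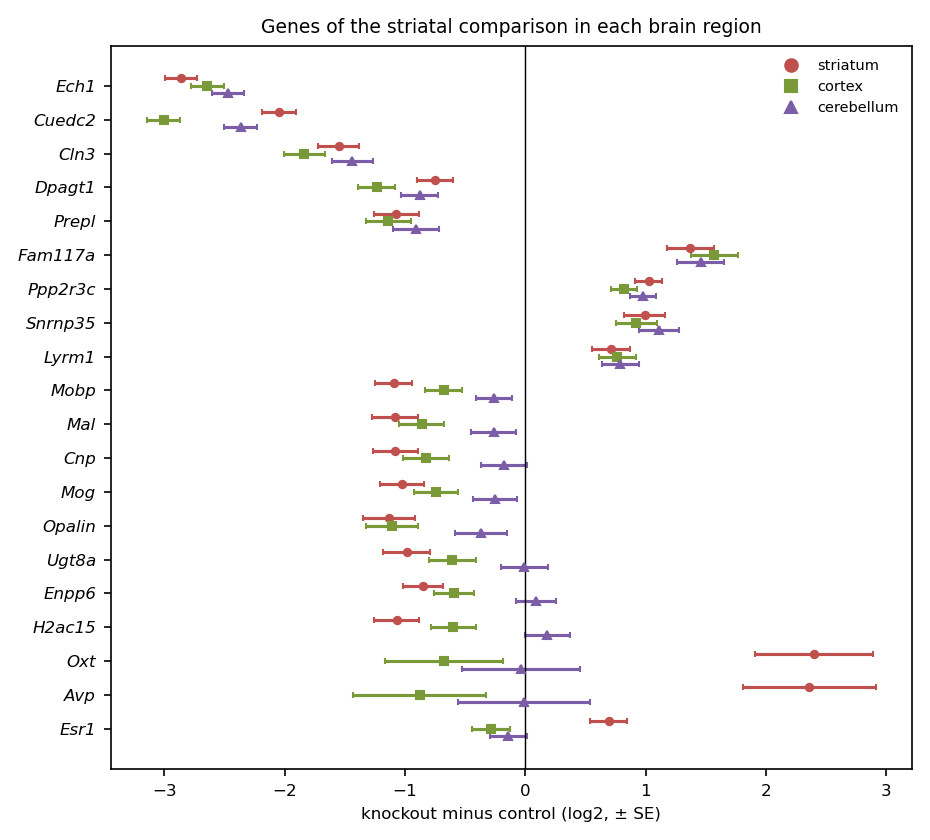
Points are differences, knockout minus control, on the log2 scale with their SE, for 20 genes in striatum (circles), cortex (squares) and cerebellum (triangles). The upper 9 genes lie on the same side of 0 in the 3 regions, the myelin genes lie further from 0 in striatum and cortex than in cerebellum, and Oxt, Avp and Esr1 are above 0 in striatum alone.

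Some of the changed genes lie side by side in the genome, in the RefSeq gene order of GRCm38.p6. Cuedc2 and Mfsd13a, which both fell, are next to each other on chromosome 19, and so are Oxt and Avp on chromosome 2. On chromosome 7, Zfp747 and E430018J23Rik, which both fell, have 2 protein-coding genes between them, and Sirt2 and Ech1, which both fell, also have 2. Mcam and Dpagt1, lower in the knockout as well, are separated by 7 on chromosome 9. Of the placed genes tested, 0.559% passed, against 1.01% on chromosome 7 (8 of 792) and 1.17% on chromosome 13 (4 of 343, among them 3 histone genes). This was noticed after the values were seen and was not tested.

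Genes of mature oligodendrocytes and of myelin, the insulating sheath that these cells wrap around axons, held more falls than any other of the 41 gene lists examined. Of 24 measured, 11 fell, none rose and 23 were below 0, and their median difference was -0.69, against 0.02 over all genes. Of all genes, 0.414% fell. The mean of the 24 was 10.25, 9.83, 9.92 and 9.93 on the control arrays and 9.78, 9.26, 9.19 and 8.99 on the knockout arrays. All knockout arrays were below all controls, with knockout 5 close to control 2. In bulk tissue, fewer oligodendrocytes and less of these RNAs per cell cannot be told apart.

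Among structural proteins of the sheath, Mobp read 12.05, 11.71, 12.11 and 11.97 in controls and 11.34, 10.86, 10.82 and 10.46 in knockouts. It did not overlap and was 2.13-fold lower (difference -1.09 ± 0.15 SE, adjusted p = 0.000212), and its other 2 probes differed by -1.18 and -1.18. Mal, a proteolipid of myelin membranes, read 10.99, 10.72, 10.89 and 10.60 in controls and 10.30, 9.62, 9.73 and 9.21 in knockouts. Knockout 5 was again the highest of its group and still under every control (difference -1.08 ± 0.19 SE, 0.00281). Mog, a glycoprotein of the outermost myelin layer, read 11.29, 10.69, 10.76 and 10.88 in controls and 10.35, 9.97, 9.60 and 9.61 in knockouts. The groups were apart (difference -1.02 ± 0.18 SE, 0.0031), and a second probe differed by -1.22. Mag, which sits next to the axon, fell by 0.82 (0.00553), and here knockout 5 (12.88) lay above control 2 (12.80). Cldn11, the tight-junction protein of myelin, fell by 0.60 (0.0115), Opalin, a membrane glycoprotein of oligodendrocytes, by 1.13 (0.00712), and Tspan2, a tetraspanin of the lineage, by 0.80 (0.0031). The call of Opalin was lost without control 1 or knockout 8 (adjusted p up to 0.0586), and that of Cldn11 without control 1 or knockouts 6, 7 or 8 (up to 0.0983).

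Mbp, myelin basic protein, was measured by 3 probes that disagreed. The brightest, which stood for the gene, differed by -0.09 (adjusted p = 0.9), a second by -1.25 (0.0023 over all probes) and the last by -0.02 (0.994). Which Mbp transcripts each probe reads was not known here.

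Of enzymes on the myelin list, Cnp, Ugt8a, Fa2h and Gamt fell. Cnp, the phosphodiesterase of oligodendrocyte cytoplasm, read 12.37, 11.83, 12.16 and 11.97 in controls and 11.78, 10.68, 10.92 and 10.63 in knockouts. Knockout 5 was just under the lowest control, and the gene fell (difference -1.08 ± 0.19 SE, adjusted p = 0.00281), with -1.14 at a second probe. Ugt8a, which makes galactosylceramide, read 10.92, 10.82, 11.14 and 10.87 in controls and 10.30, 10.18, 9.79 and 9.53 in knockouts, a fall of 0.99 (0.00858) with no overlap. Fa2h, which hydroxylates the fatty acids of myelin sphingolipids, fell by 0.98 (10.79 to 11.06 against 9.38 to 10.64, 0.00486). Gamt, an enzyme of creatine synthesis, fell by 0.78 (0.0285) with overlapping groups. Ugt8a lost the call without knockout 8 (0.0757), and Gamt without any 1 of 5 arrays (up to 0.195). Adamts4 (-1.33, 0.085), Pllp (-0.69, 0.0634), Trf (-0.70, 0.144) and Gal3st1 (-0.68, 0.152) were among the 13 members that did not pass, and Aspa (0.09) was the only member above 0.

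**Figure D4:**
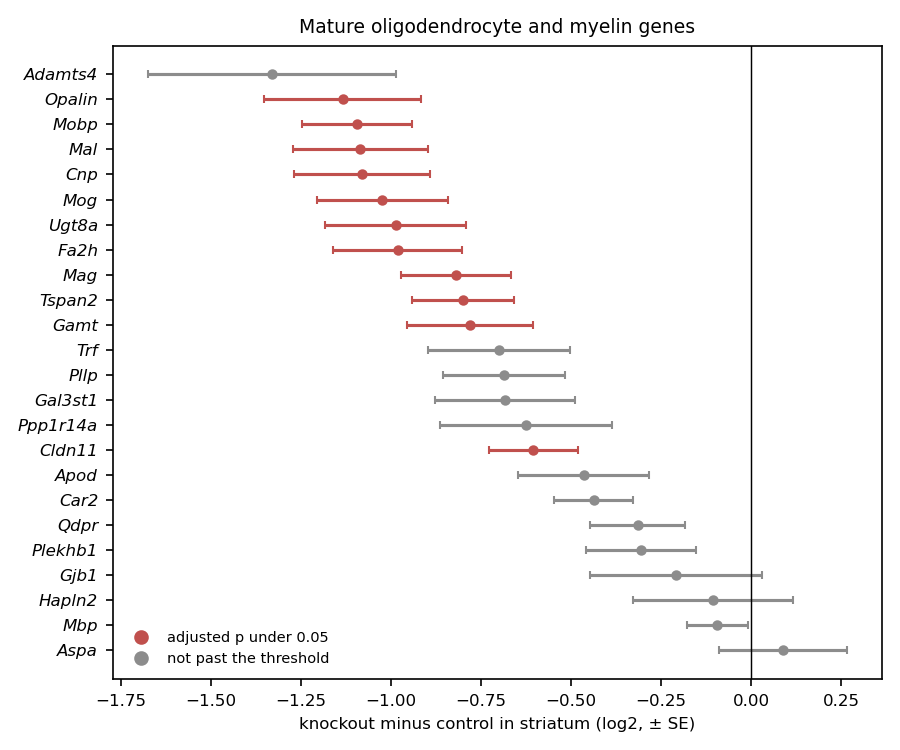
Each of the 24 measured genes of mature oligodendrocytes and myelin is placed by its striatal difference, knockout minus control, on the log2 scale with its SE. The 11 genes in red passed the threshold, all of them below 0, and Mbp and Aspa at the foot lie within 0.1 of 0.

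The median of the 24 myelin genes was -0.82 with the hypothalamic covariate and -0.82 with the arrays alike, where 7 and 11 of them passed. The arrays alike leave out knockout 5, the knockout array with the highest myelin mean. Without knockout 5 alone the median was -0.92, the largest fall over all settings tried. Without knockout 8, the array with the lowest myelin mean, 7 passed and the median was -0.55, the smallest fall. The part of hypothalamic tissue was not tested. With median scaling 5 passed, with striatum normalized and fitted alone 6, and with striatum fitted alone 4. In cortex the median of the same genes was -0.68, and in cerebellum -0.11. Mobp differed by -0.26 in cerebellum, but its difference from striatum (-0.83 ± 0.22 SE) did not pass (adjusted p = 0.889), nor did that of any other myelin gene.

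Earlier stages of the lineage were covered by a second list, and the difference between the lists was not tested. Of 14 measured genes of oligodendrocyte precursors and newly formed oligodendrocytes, 2 fell and none rose. Of the 14, 10 were below 0 and 4 above, with a median of -0.27. Over all genes 0.414% fell and 0.126% rose, 54.1% were above 0 and the median was 0.02. Enpp6, a choline phosphodiesterase of newly forming oligodendrocytes, read 9.84, 9.67, 9.68 and 9.86 in controls and 9.54, 8.81, 8.55 and 8.74 in knockouts. Knockout 5 lay just below the controls and the other 3 far below (difference -0.85 ± 0.17 SE, adjusted p = 0.00843). Sirt2, a deacetylase abundant in myelin and thus not particular to earlier stages, fell by 0.67 (0.00948) with overlapping groups. Enpp6 lost the call without knockout 7 or 8 (adjusted p up to 0.0566), and Sirt2 without control 1, knockout 6 or knockout 8 (up to 0.0825). Olig1, a transcription factor of the lineage, differed by -0.53 (0.0829). The precursor markers Pdgfra and Cspg4, picked after their values were seen, differed by 0.08 and -0.14.

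Several other genes that fell are known from oligodendrocytes or from membrane lipids, although they were on no list and were picked after their values were seen. Gltp, a glycolipid transfer protein, fell by 0.92 (10.48 to 11.00 in controls, 9.56 to 10.48 in knockouts, adjusted p = 0.00553). Slc44a1, a choline transporter, fell by 0.83 (0.00654), and Lpar1, a lysophosphatidic acid receptor, by 1.00 (0.00843). Elovl1, which elongates very long fatty acids, fell by 0.71 (0.0455), and 3 further probes of it by 0.85 to 0.87. Gsn, the actin-severing protein gelsolin, fell by 1.04 (0.00858), and lost the call without control 1 or knockout 8 (up to 0.0723). Plxnb3, a semaphorin receptor (-0.93), Cryab, a small heat shock protein (-0.84), Bin1, a membrane-bending protein (-0.48), and Rtkn (-0.73) also fell. These 4 and Elovl1 each lost the call without at least 6 of the 8 arrays in turn. Further probes of Bin1 differed by -0.18 and -0.31 (adjusted p = 0.933 and 0.881 over all probes). A dim second probe of Rtkn differed by -0.09 (0.979).

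The remaining falls were of other kinds and were likewise named after their values were seen. Slc45a3, a solute carrier, fell by 0.96 (adjusted p = 0.00834), Pdlim2, a PDZ and LIM domain protein, by 0.99 (0.00843) and Zdhhc9, a palmitoyltransferase, by 0.65 (0.0115). The Slc45a3 probe was detected on only 2 of the 4 knockout arrays, so the size of its fall is uncertain. Mcam, an adhesion molecule of vessels, fell by 0.88 (0.0224), Cxcl12, a chemokine, by 0.57 (0.0312), Arhgap23 by 0.49 (0.0285) and Ddx6, an RNA helicase, by 0.57 (0.0414). The last 4 lost the call without at least 5 arrays in turn, Zdhhc9 without 4, Pdlim2 without control 1 or knockout 8, and Slc45a3 and Slc44a1 without knockout 8. Further probes of Cxcl12 differed by only 0.01 and -0.17 (adjusted p = 0.997 and 0.93 over all probes). Those of Ddx6 differed by -0.51 and -0.22, and those of Pdlim2 by -0.86, -0.99 and, undetected, 0.14, none passing. Those of Mcam differed by -0.58 (0.421) and -1.06 (0.00684).

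A set of 3 histone H2A genes fell, H2ac15 by 1.07 (adjusted p = 0.00281), H2ac7 by 1.05 (0.00276) and H2ac12 by 0.93 (0.0255). H2ac15 read 9.95, 9.84, 9.56 and 9.44 in controls and 8.81, 8.96, 8.57 and 8.17 in knockouts, with no overlap. These genes are near-identical copies, so the probes may read the same transcripts and the 3 falls may not be separate. None of the 3 passed with the hypothalamic covariate (0.0657 to 0.0965), at differences of -0.98, -0.98 and -1.02 that were about as large as before. With the arrays alike H2ac7 passed (0.0252), while H2ac15 (0.0592) and H2ac12 (0.0635) did not. The 16 measured genes of cell cycle and replication had a median of -0.13 and none passed.

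Oxt and Avp rose. Of 16 measured hypothalamic genes these 2 rose, 14 were above 0 and the median was 0.24, against 0.126% that rose, 54.1% above 0 and a median of 0.02 over all genes. Oxt, whose values are given above, was 5.28-fold higher on average (difference 2.40 ± 0.49 SE, adjusted p = 0.0115). This SE pools the spread of all 6 groups, and within striatum the SD was 1.66 in controls and 0.89 in knockouts. Avp, the vasopressin precursor, read 5.92, 6.16, 4.59 and 7.35 in controls and 9.02, 6.22, 8.43 and 9.78 in knockouts. Knockout 6 lay within the controls (difference 2.36 ± 0.55 SE, 0.0409). The difference of Oxt was 0.72 with the covariate (adjusted p = 0.559) and 0.94 with the arrays alike (0.455), and that of Avp 0.72 (0.709) and 0.85 (0.778). Both genes are part of the mean that served as covariate and that chose the arrays, so smaller values were built into these settings and are no test of the tissue's part.

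Esr1, an estrogen receptor found in hypothalamic neurons, differed by 0.69 (0.0285) and was detected on 1 control and 4 knockout arrays. Rxfp3, the relaxin-3 receptor, rose by 0.60 (0.0414), Plvap, a protein of fenestrated capillaries, by 1.11 (0.0455), and Nrn1, neuritin, by 0.51 (0.0181). Esr1, Rxfp3, Plvap and Nrn1 did not overlap between groups, which the rule that named them required. With the covariate their differences were 0.68, 0.59, 0.69 and 0.50 and with the arrays alike 0.62, 0.54, 0.74 and 0.49, and none passed (adjusted p from 0.157 to 0.588). With these 2 settings the differences of Esr1, Rxfp3 and Nrn1 moved little, which is no test of the tissue's part. Oxt, Avp and these 4 genes, 6 in all, also lost the call without knockout 8. They lost it with striatum fitted alone too (adjusted p from 0.0556 to 0.408). Rxfp3 lost it without 7 of the 8 arrays in turn, Plvap without 6, Esr1 without 4 and Nrn1 without 3 (control 2, knockouts 6 and 8). Nrn1 is also on the list of cortical genes. It was highest on knockout 6 (8.98), the array that stood apart in Slc17a7, and both settings keep that array. The part of hypothalamic or cortical tissue in these genes was not tested.

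Projection neuron genes did not pass in either pathway, where 0.540% of all genes passed. Of 7 measured D1 genes 5 were above 0, with a median of 0.15. All 4 measured D2 genes were below 0, with a median of -0.48. Gpr6, an orphan receptor of indirect-pathway neurons, read 7.04, 7.28, 7.23 and 7.33 in controls and 6.86, 6.89, 6.65 and 6.04 in knockouts. It did not overlap but did not pass (difference -0.61 ± 0.18 SE, adjusted p = 0.174). Drd2, the D2 receptor, read 8.47, 8.30, 9.03 and 8.70 in controls and 8.12, 8.39, 8.08 and 7.84 in knockouts (difference -0.52, 0.331). Knockout 6 lay above control 2. The median of the D2 genes was -0.31 with the covariate and -0.29 with the arrays alike.

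Of 24 genes shared by D1 and D2 neurons 19 were below 0, with a median of -0.12, which became 0.28 with the covariate and 0.28 with the arrays alike. The median also moved from -0.27 without control 1 to 0.00835 without knockout 8, and was -0.00886 with median scaling. Their mean was lowest on control 1 (9.45) and knockouts 5 and 8 (9.55 and 9.35). Ppp1r1b, the phosphoprotein DARPP-32 that relays dopamine signals, differed by -0.09, and Pde10a, the striatal phosphodiesterase, by -0.29, neither passing. Of 20 genes of dopamine and cAMP signalling 16 were below 0, with a median of -0.10, which became 0.23 with the covariate and 0.03 with median scaling.

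Among other neurons, 11 of 14 genes of GABAergic interneurons and 8 of 10 of cholinergic neurons were above 0, with medians of 0.23 and 0.13. None passed, against 0.540% of all genes. Cox6a2, a cytochrome oxidase subunit found in parvalbumin interneurons, read 7.23, 7.75, 7.54 and 7.20 in controls and 8.13, 8.31, 8.12 and 8.37 in knockouts. It did not overlap (difference 0.80 ± 0.26 SE, adjusted p = 0.269). Slc5a7, the choline transporter of cholinergic neurons, varied from 4.86 to 8.68 in controls and from 7.32 to 7.70 in knockouts, so its mean difference of 1.00 (0.633) came from 2 low control arrays, 1 and 2.

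In the lists of stress pathways, lysosomes and cholesterol synthesis only Cln3 passed. With 0.540% of all genes past the threshold, a list of such size without a call is no result about its genes. Of 15 genes of the unfolded protein response, which raises chaperones when proteins misfold in the endoplasmic reticulum, 13 were above 0 with a median of 0.21, against 54.1% and 0.02 over all genes, and none passed. Herpud1, which serves protein degradation there, differed by 0.25 (adjusted p = 0.359) without overlap, and Pdia6, a protein disulfide isomerase, by 0.60 (0.429). Of 22 targets of the integrated stress response, which acts through phosphorylated eIF2 and the factor ATF4, 11 were above 0, with a median close to 0 and none passing. Ddit4 differed by -0.45 (0.392) and Shmt2 by 0.44 (0.622).

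Of 22 lysosomal genes only Cln3 changed, against 0.540% of all genes, and the median was -0.02. Gusb, beta-glucuronidase, did not overlap and differed by -0.73 (7.47, 6.98, 6.87 and 7.35 against 6.25, 6.80, 6.33 and 6.38, adjusted p = 0.118). Of 17 genes of cholesterol synthesis 15 were below 0, with a median of -0.19. Hmgcs1, which makes the precursor of mevalonate, differed by -0.26 (0.519) without overlap. Of 22 genes of inherited dystonia none passed, against 0.540% of all genes, and their median was 0.02. Tubb4a, a tubulin abundant in oligodendrocytes, differed by -0.39 without overlap (11.32 to 11.62 against 10.82 to 11.20, 0.174), and Tor1a, the torsin of another inherited dystonia, by 0.01 (0.997). Nfasc, whose protein anchors myelin loops and nodes of Ranvier, differed by -0.54 without overlap (0.14). Of all 41 lists 32 held no gene that passed, where 0.540% of all genes did. Their medians ran from -0.48 to 0.23, and astrocyte, microglia and endothelial genes had medians of 0.06, -0.08 and -0.07.

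**Figure D5:**
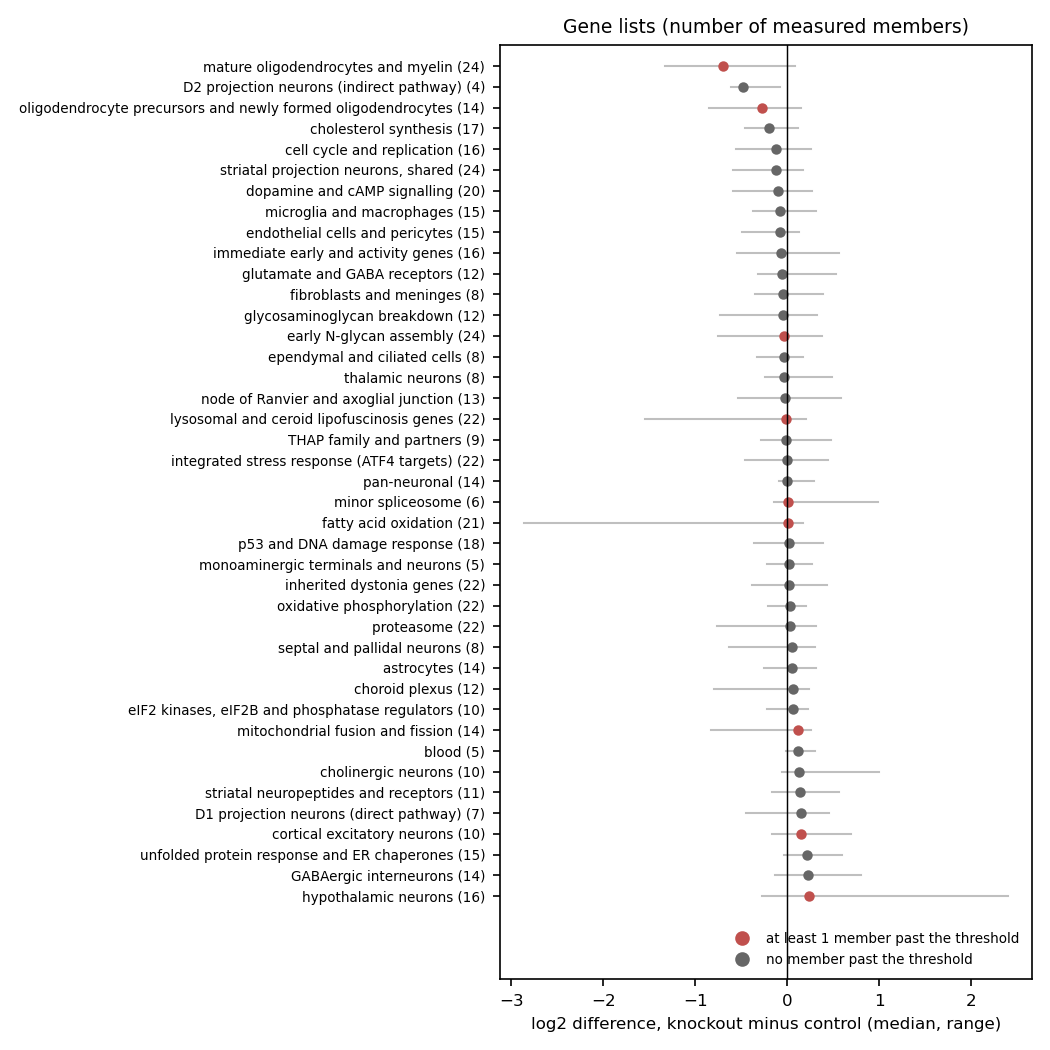
Each row is a gene list with its number of measured members, the point its median difference and the line the range of its members on the log2 scale. The myelin list is furthest below 0 (-0.69), the hypothalamic list furthest above (0.24), and only the red lists hold a member past the threshold.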

How the data were processed

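Linear bead intensity, with a detection p-value beside it, makes up the deposited raw table, per the file headers. The submitters' processing notes name BeadStudio. A second deposited table holds the authors' processed intensity on a linear scale, with column medians from 11.55 to 11.61, and the sources used here do not state its background subtraction or normalization (values under 16 were set to 16 for log2). Background was corrected on the raw values with limma 3.58.1 in R 4.3.3 (noise taken from detection p-values, offset 16), followed by quantile normalization and log2. The offset shrinks differences of dim genes. A filter kept the 14994 probes with a detection p under 0.01 on 4 or more arrays, and the brightest probe stood for each of 11114 genes, of which 876 are unnamed probes. Probe genes came from GEO's platform annotation, and 23971 of 25697 probes matched GRCm38.p6.

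The fit (lmFit, then eBayes, in limma) gave each of 6 groups a mean over all 24 arrays (intensity trend, residual degrees of freedom 18). P-values were adjusted over all genes by Benjamini-Hochberg (two-sided, threshold 0.05). All 24 arrays were treated as independent. If the 4 wild-type and 4 conditional knockout mice of the design text are all the mice, the 3 regions share mice. The p-values, also those of the differences between regions, do not account for shared mice. The script was tested on simulated data with independent noise and known changes. It found 23 of 67 changes of 0.5 on the log2 scale (34.3%), 61 of 67 of 1 (91%) and 66 of 66 of 2. A true difference near 0.5 may thus have been missed. Genes were named as up to 15 largest non-overlapping changes each way (giving 15 falls and 11 rises), all Thap1 probes, and the 4 to 6 members of each list with the smallest p. Every other gene named was chosen after its values were seen. The genes, lists and tests were chosen with earlier results of these data known. No cell type or pathway list was tested as a set. Alternatives were other background, scaling, filter, probe and fit choices, the authors' values, and leaving out each array. The 2 alternatives for hypothalamic tissue were added after seeing the data.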

Additional observations from a re-analysis of the deposited data

Results flagged for a closer look

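Groups of 4 arrays were screened for an array far from the rest, and 8 of 182 groups (4.4%) were marked, where chance marks about 1 in 20. Cyb5d2 was lower on knockout 8 (5.98) than on the other knockouts (6.56 to 6.67). H2ac7 and Opalin were higher on control 1 (10.28 and 10.29) than on the other controls (9.71 to 9.77 and 9.58 to 9.69). Prepl was higher on control 3 (11.59 against 10.85 to 10.91).

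Of list means, that of septal and pallidal genes was higher on knockout 5 (7.61 against 7.39 to 7.43) and that of p53 and DNA damage genes lower there (7.67 against 7.83 to 7.85). The lysosomal mean was lower on control 2 (8.38 against 8.49 to 8.50), and the mean of glutamate and GABA receptor genes lower on control 1 (7.88 against 7.92 to 7.92).

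The effect on Iqcj differed between striatum and cortex by -1.22, and the effect on Fxyd6 between striatum and cerebellum by 0.76, each by the test of the difference itself.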

How the results depend on the processing

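No paired analysis was possible because the knockout and control arrays share no replicate number and no label ties arrays to mice. Of the 60 calls, 13 held without every array and under all 11 other choices of processing (Ech1, Cuedc2, Ppp2r3c, Cln3, Mobp, Fam117a, E430018J23Rik, Zfp597, Snrnp35, Mal, Prepl, H2ac15 and Mog), not counting the 2 settings for hypothalamic tissue, with which Snrnp35 (covariate only), Prepl and H2ac15 lost the call. Of the 60, 35 were lost without at least 1 array, and none reversed. Dim genes are limited by signal over background and by an offset that shrinks their differences. Where a count changed, the cause was not tested.

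With median scaling 26 genes passed (7 higher, 19 lower), with striatum normalized and fitted alone 28 (6 and 22), with striatum fitted alone 15 (4 and 11), with the covariate 32 (7 and 25), with array weights 8 were higher and with the arrays alike 7. Fitting striatum alone leaves fewer degrees of freedom. Leaving out each array gave 30 to 95 genes, 6 to 13 higher and 24 to 85 lower, and 7 to 16 myelin genes. Myelin genes past the threshold numbered 5 with median scaling, 6 with striatum normalized alone, 4 with striatum fitted alone and 7 with the covariate. The single call against cortex became 0 with no background correction, median scaling, no filter, the striatal filter, array weights and the robust prior. The single call against cerebellum became 0 with no background correction, offset 50, median scaling and no filter, and 3 with the authors' values. Without single arrays these counts ran from 0 to 1 and from 0 to 9.

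Differences near 0 changed sign: Mbp to 0.0757 with median scaling, Thap1 to -0.24 with the mean of probes, Fxyd6 in striatum to -0.0202 with the arrays alike, and Drd1, -0.13 in the report's setting, to 0.00783 with median scaling, -0.39 to 0.11 without single arrays (0.11 without control 3, 0.08 without knockout 5), 0.62 with the covariate and 0.61 with the arrays alike.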

Other observations

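The spacing of the THAP1 and YY1 letters in the Ech1 promoter was looked for in other promoters, as the THAP1 letters on the opposite strand, 3 bases and then the YY1 letters, a pattern written after the Ech1 and Rrm1 promoters had been seen. It was found in 47 of 32851 promoters (0.143%), of 42 genes, 32 of which were measured. Of these only Ech1 passed, 15 were above 0 and 17 below, and the median difference was -0.04. The 18 letters are shown for 4 genes, with the 2 motifs in capitals, from RefSeq GRCm38.p6: Ech1 at chr7:28825207-28825224 (plus strand), Psmb5 at chr14:54618080-54618097 (minus), Tor1a at chr2:30967998-30968015 (minus) and Rrm1 at chr7:102441595-102441612 (plus).
Ech1: TGCCCTTAgtaAAGATGG
Psmb5: TGCCCGGAgtaAAAATGG
Tor1a: TGCCCTTAacaAAGATGG
Rrm1: TGCCCACAcccAATATGG
Psmb5, a catalytic subunit of the proteasome, differed by -0.76 in striatum (adjusted p = 0.615), by -0.65 in cortex and by -1.08 in cerebellum. Tor1a, which carries letters like those of Ech1, differed by 0.01, and Rrm1, a subunit of ribonucleotide reductase, by 0.01.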
